A study of Flechtneria rotunda with 10 samples.

Results

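The comparison of early desiccation with the hydrated stage covered 4 of the 10 libraries of the series and 10467 of its 17148 assembled genes, those with enough counts to be tested. The remaining 6681 genes were removed by the low-count filter. The organism is Flechtneria rotunda, strain SEV3VF49, a single-celled green alga isolated from desert. Cultures had grown for 6 weeks in flasks with 150 mL of medium before drops of 40 µL were placed on cover glasses. Hydrated drops (2 libraries) were taken at once, and early desiccation drops (2 libraries) at 2.5 h, when 25% of the volume had gone. The later stages, also with 2 libraries each, were late desiccation (7.5 h, a loss of 60%), dry (about 24 h, including 11 h more in the chamber once flat) and rehydrated (1 h after water was added back). All stages came from the same strain and medium, and whether the libraries of a stage stem from separate cultures is not stated in the labels. What the p-values measure is thus the spread between the libraries at hand, which may be technical.

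Algae of desert soil surfaces dry out and rewet often, and each cycle passes through a phase of slow water loss in which solutes become concentrated while cells can still make RNA. In land plants and green algae that survive drying, the known responses include making protective proteins and compatible solutes and lowering photosynthesis and growth. The question here is which RNA levels had moved while most of the water was still present, and where those levels stood later. The deposited files give assembly identifiers that are not paired with gene names, so genes are grouped by direction, size of change, abundance and later behaviour, and no function is given. The name of the deposited table calls its genes differentially expressed, by a choice not stated, so percentages of the tested genes do not speak for every gene the alga has.

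The 4 libraries held 2188125 to 2923437 counts each, and 13481 to 13774 genes had reads in them. Across the tested genes, log2 CPM (counts as a rate per library, scaled by TMM so that the bulk of genes is level between libraries) correlated at 0.94 between the hydrated libraries and at 0.95 between the early ones. The 4 correlations between a hydrated and an early library lay between 0.87 and 0.88. The late libraries held reads for 16728 and 16972 genes, more than those of any other stage, and were also the deepest, with 3561533 and 5409197 counts against 1696655 to 2923437 in the other 8.

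After the loss of 25% of the volume, 529 genes were higher and 645 lower than in hydrated drops (edgeR quasi-likelihood test, adjusted p below 0.05). Together they made up 11.2% of the tested genes, 5.05% higher and 6.16% lower. These genes are called early risers and early fallers from here on. Their changes were mostly between 2-fold and 4-fold: 351 risers and 390 fallers lay in that range, 66 and 47 changed by less, and 112 and 208 by at least 4-fold. The median log2 fold change was 1.39 in the risers (quartiles 1.15 to 1.86, median SE 0.31) and -1.61 in the fallers (quartiles -2.18 to -1.27, median SE 0.33). The median over all tested genes was 0.00. The smallest change that passed the test was 0.78 on the log2 scale, and 2690 genes had an unadjusted p below 0.05. In all 529 risers both early libraries lay above both hydrated ones, and in all 645 fallers both lay below. Of all tested genes 59.2% showed no overlap between the stages in either direction, so this separation is common here and says little by itself.

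**Figure D1:**
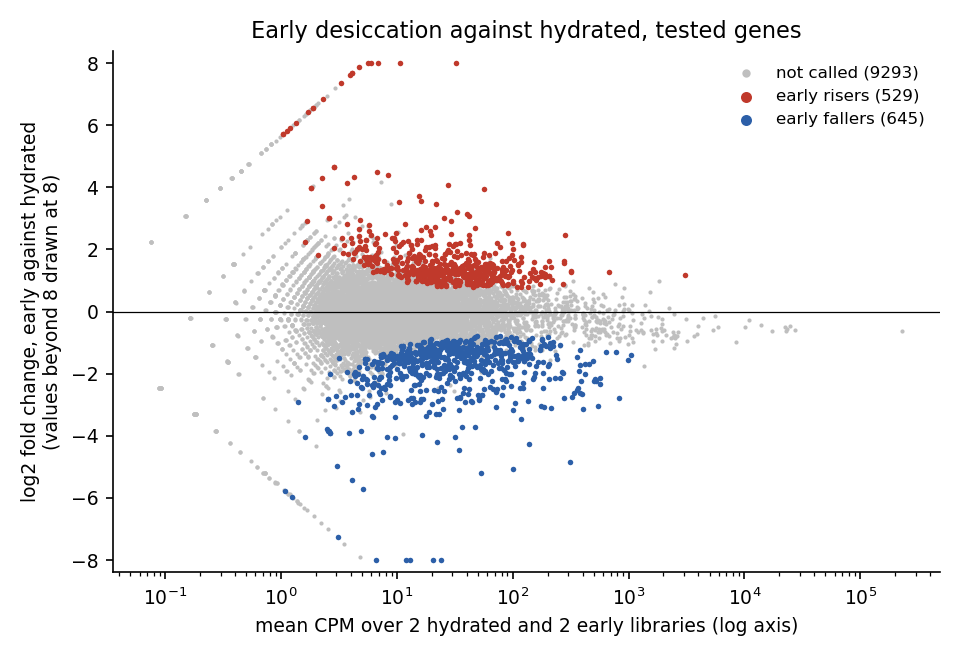
Log2 fold change of early desiccation against hydrated (vertical axis) over mean CPM of the 4 libraries (horizontal log axis), with 1 point per tested gene; red points are the 529 early risers, blue the 645 early fallers, grey the 9293 genes not called. Called genes of both directions run through most of the abundance range, while among genes of 1000 CPM or more few were called.

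Falls outnumbered rises more clearly among large changes. In a test against a minimum of 2-fold, 42 genes were higher and 109 lower by edgeR at the same threshold. With each hydrated or early library left out in turn, 76 risers (14.4%) and 155 fallers (24.0%) were called in all 4 fits in the same direction. Their median log2 fold changes were 2.01 and -2.25. The number of calls depended on every one of the 4 libraries. It was 119 higher and 302 lower without hydrated replicate 1, 159 and 258 without hydrated replicate 2, 133 and 197 without early replicate 1, and 234 and 282 without early replicate 2. The balance of rises and falls depended on the scaling: scaled by library totals, 792 genes rose and 232 fell, so that rises made up 77.3% of the calls against 45.1% on the TMM scale, and the median of all tested genes moved from 0.00 to 0.42. Directions are therefore relative to the bulk of the tested genes, and RNA per cell is not known from these files. Without a filter on low counts 701 genes were higher and 536 lower.

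Genes with many reads were called more often. The tested genes were split into 4 classes of near-equal size by mean log2 CPM over all 10 libraries, so that 1.64%, 3.48%, 5.01% and 10.1% were early risers, from the lowest to the highest class. Early fallers made up 2.64%, 5.39%, 6.73% and 9.90% of the same classes. The median change of called genes went the other way. It was 2.94 for risers in the lowest class (SE 0.72) and 1.27 in the highest (SE 0.27), and -2.73 (SE 0.62) and -1.43 (SE 0.28) for fallers, where SE is the median standard error. At the top of the range, 72 genes had at least 1000 CPM on average in the 4 libraries, a limit chosen after the values were seen. Of these 1 was a riser and 1 a faller, and their median log2 fold change was -0.60.

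On the deposited signal, which takes gene length into account, the fallers had been abundant genes and the risers ordinary ones. The median signal in the hydrated libraries was 25.5 and 27.6 for the fallers, 6.82 and 7.0 for the risers, and 6.97 and 6.79 for all tested genes. In the early libraries it was 8.15 and 8.79 for the fallers and 19.5 and 18.9 for the risers, with all tested genes at 6.98 and 7.08. The median faller thus came down to near the level of the tested genes as a whole, and the median riser left it. Since these same libraries chose both sets, the early and hydrated levels describe them and test nothing. Relative length, set to 1 at the median of each library, had a median of 1.25 in the risers (quartiles 0.81 to 1.82) and 1.08 in the fallers (0.69 to 1.54), against 0.95 over all tested genes (0.64 to 1.37). Longer genes gather more reads, and the part of this in the calls was not tested.

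Few early changes were a switch from no reads to reads. Among the risers 19 genes had 0 counts in both hydrated libraries, of 116 such genes tested, and among the fallers 8 had 0 counts in both early libraries, of 103 tested. With such genes placed at a floor of 3 counts for the stage, 110 risers and 208 fallers changed by at least 4-fold, and the medians stayed at 1.39 and -1.61. The floor covers counting error only.

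The called genes came from 1127 assembly clusters, in which the assembler groups sequences that overlap. In 44 clusters at least 2 genes were called, 91 genes in all. Every called gene had risen in 20 of these clusters and fallen in 21, and 3 held both directions. Of the risers 26.3% and of the fallers 22.8% shared a cluster with another tested gene, against 20.1% of all tested genes. Reads of such genes may be split between similar sequences, so their single values are uncertain.

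Of the 4 genes chosen by rule, TRINITY_DN73082_c0_g5 had the largest fitted rise. It had 0 counts in both hydrated libraries and 262 and 175 in the early ones, 78.4 and 52.1 CPM. Early libraries were 121-fold above hydrated at the floor of 3 counts over the hydrated stage (edgeR adjusted p = 0.0341). The lower 95% limit of the early to hydrated ratio, from counting error alone, was 98.3. Later the gene had 303 and 0 counts at late desiccation, 368 and 246 CPM in dry drops, and 128 and 122 CPM after rehydration. The late libraries differed in whether reads were found, while each dry library lay above all libraries of the other stages. Leaving out any 1 of the 4 libraries ended the early call (edgeR adjusted p from 0.0742 to 0.156), and over all alternatives and tools the adjusted p ran from 0.000169 to 0.156. Its cluster held 4 tested genes, and it was the only one called at early desiccation.

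TRINITY_DN148330_c1_g1 had the largest rise in CPM. It stood at 1897 and 1812 CPM in hydrated and at 4280 and 4188 CPM in early libraries. The fold change was 1.19 on the log2 scale (SE 0.29, edgeR adjusted p = 0.0215). It was at 6413 and 6141 CPM in late, 7281 and 8909 CPM in dry and 5896 and 7379 CPM in rehydrated libraries. Every late, dry and rehydrated library lay above both early ones, and no step between late, dry and rehydrated passed the test (edgeR adjusted p = 0.315 for dry against late and 0.569 for rehydrated against dry). The replicates lay close together at each of the first 3 stages, but with 1 library left out the early call was lost each time (edgeR adjusted p between 0.103 and 0.161). Over all alternatives the adjusted p, from edgeR, DESeq2 or limma, ran from 6.16e-08 to 0.830. The highest came from the edgeR test against a minimum of 2-fold, which asks for more than a change.

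TRINITY_DN70547_c7_g1 had the largest fitted fall. It had 58 and 206 counts in the hydrated libraries, 20.4 and 75.2 CPM, and 0 counts in both early ones. Early libraries were 106-fold below hydrated at the floor of 3 counts over the early stage (edgeR adjusted p = 0.0254). The upper 95% limit of the early to hydrated ratio, from counting error alone, was 0.0117. Afterwards it had reads in 1 library alone, late replicate 2, with 142 counts (18.0 CPM), and none in the other late library or in any dry or rehydrated one. The hydrated libraries themselves lay far apart. DESeq2 gave an adjusted p of 0.177, the highest of the alternatives, and edgeR without a filter on low counts the lowest, 0.000902. The edgeR call held without hydrated replicate 1 (adjusted p = 0.0433) and was lost without hydrated replicate 2 (0.121), early replicate 1 (0.122) or early replicate 2 (0.118). The other tested gene of its cluster was called as well.

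TRINITY_DN74363_c1_g3 had the largest fall in CPM and later came back. It went from 1322 and 1565 CPM in hydrated to 192 and 228 CPM in early libraries, a log2 fold change of -2.78 (SE 0.38, edgeR adjusted p = 0.00113). The call held without any 1 of the 4 libraries (edgeR adjusted p from 0.00743 to 0.0240) and in every other alternative tried. At late desiccation it was at 201 and 90.8 CPM. In dry drops it stood at 2511 and 2979 CPM, a rise from late of 4.23 on the log2 scale (SE 0.40, edgeR adjusted p = 1.40e-05), and in rehydrated drops at 1939 and 2507 CPM. All 4 dry and rehydrated libraries lay above both hydrated ones. Against hydrated neither stage passed the test, with a log2 fold change of 0.93 in dry (SE 0.36, edgeR adjusted p = 0.0512) and 0.62 after rehydration (SE 0.36, edgeR adjusted p = 0.181).

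**Figure D2:**
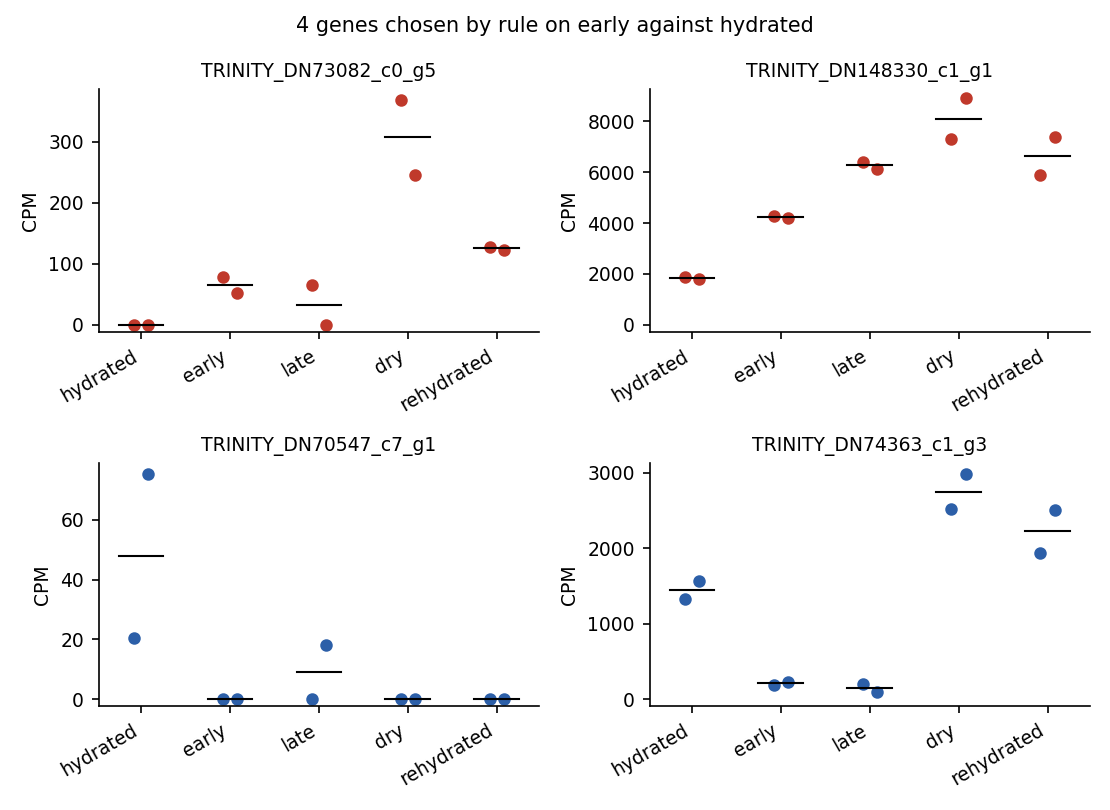
CPM (vertical axes, from 0, a scale for each panel) of the 4 genes chosen by rule, by stage; points are libraries and black lines the mean of 2. The top genes rose and the bottom genes fell at early desiccation, and TRINITY_DN74363_c1_g3 stood between 1939 and 2979 CPM in dry and rehydrated libraries after 90.8 to 228 CPM during drying.

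How the early genes stood later was first described by their level in each library relative to the mean of the hydrated ones, as log2 of CPM plus 1. The median riser lay at 1.36 and 1.27 in the early libraries, 1.12 and 1.08 in the late, 0.46 and 0.55 in the dry and 0.44 and 0.66 in the rehydrated ones. The median faller lay at -1.56 and -1.51, -1.71 and -1.73, -1.76 and -1.66, and -1.42 and -1.54 in the same order. The median riser came back part of the way in dry drops, whereas the median faller stayed near the level reached at the first stage. These medians of whole sets mix unlike trends in the 4 classes of mean log2 CPM, which rest partly on the dry libraries. From the lowest to the highest class, the risers' median log2 fold change against hydrated was 2.94, 1.77, 1.33 and 1.27 in early drops. In dry drops it was 0.0, -0.25, -0.01 and 1.38. That of the fallers was -2.73, -1.80, -1.45 and -1.43 in early drops, and -3.65, -2.69, -1.88 and -0.71 in dry drops. The highest class held 264 risers and 259 fallers. All tested genes had medians of -0.33 and -0.22 in the dry and -0.09 and -0.13 in the rehydrated libraries. The sets should be read against this shift, which differed by class. The median log2 fold change of dry against hydrated over all tested genes ran from -1.16 in the lowest class to 0.72 in the highest. The hydrated libraries are the base of every one of these ratios and also served to choose the sets.

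**Figure D3:**
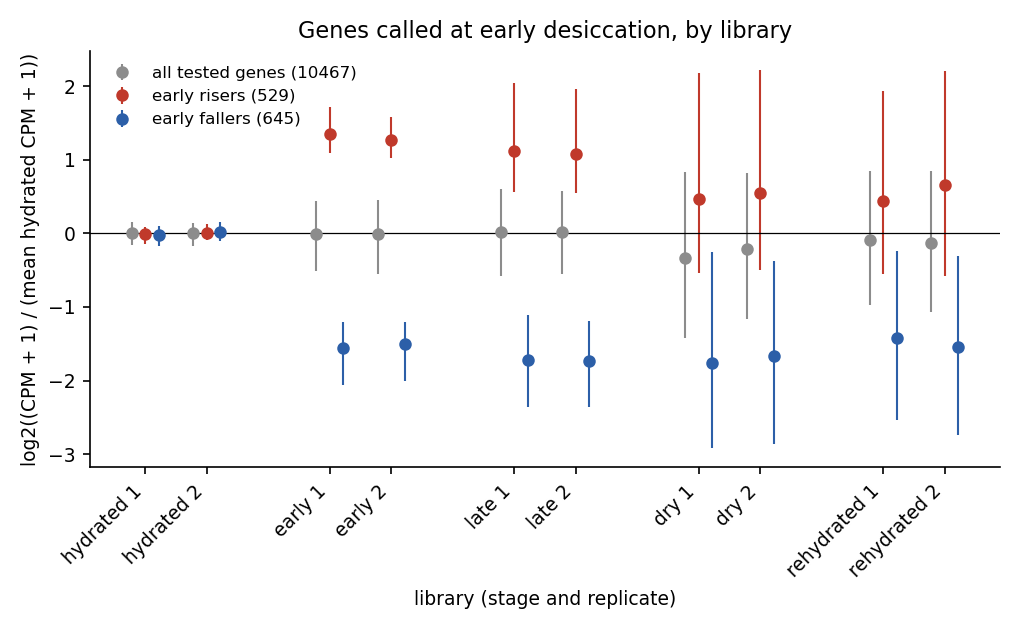
Median over genes (points) and quartiles (bars) of log2 of CPM plus 1 relative to the mean of the hydrated libraries (vertical axis), in each of the 10 libraries, for all tested genes (grey), early risers (red) and early fallers (blue). The riser medians go from 1.27 and 1.36 in early to between 0.44 and 0.66 in dry and rehydrated libraries, with quartiles that spread to both sides of 0, and the faller medians stay between -1.42 and -1.76 in all libraries after hydrated.

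The spread within each set widened at the dry stage. The quartiles of the log2 fold change against hydrated were 0.60 to 2.25 for risers at late desiccation, -0.51 to 2.55 in dry and -0.59 to 2.32 in rehydrated drops. For fallers they were -2.50 to -1.23, -3.17 to -0.29 and -2.86 to -0.29. Over all tested genes they were -0.59 to 0.69, -1.47 to 0.92 and -1.11 to 0.96. These comparisons share the hydrated libraries. The stage of highest mean CPM was early for 264 of the 529 risers, dry for 108, rehydrated for 80 and late for 77. For 291 risers (55.0%) hydrated was the lowest stage, for 120 dry and for 113 rehydrated. Hydrated was the highest stage of 478 of the 645 fallers (74.1%), and the lowest was dry for 206, early for 170, late for 161 and rehydrated for 108. Over all tested genes the highest stage was hydrated in 23.4%, early in 17.8%, late in 17.8%, dry in 22.9% and rehydrated in 18.0%, and the lowest was hydrated in 18.9%, early in 14.7%, late in 13.7%, dry in 33.6% and rehydrated in 19.1%. The shares of risers highest in dry (20.4%) and of fallers lowest in dry (31.9%) lay below those of all tested genes. The ranks include the hydrated and early libraries that chose the sets. No riser could be highest in hydrated and no faller lowest there, so the shares left for other stages are partly fixed. They are given as descriptions.

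The step from late desiccation to dry compares no hydrated or early library, but 1 model over all 10 libraries gave both the sets and the calls of this step, so they share each gene's estimate of spread. Early risers were lower in dry more often than all tested genes were: 209 of 529 (39.5%) were lower in dry than in late, where 20.3% of all tested genes were, and 117 (22.1%) were higher, where 22.4% of all tested genes were (edgeR adjusted p below 0.05). With DESeq2, 130 of 450 risers (28.9%) were lower, where 12.5% of all tested genes were, and 132 (29.3%) were higher, where 20.3% were, so falls did not outnumber rises. With the sets called from the hydrated and early libraries alone and this step from the late and dry libraries alone, 296 of 800 risers (37.0%) were lower and 168 (21.0%) higher, where 22.7% and 22.2% of all tested genes were (edgeR adjusted p below 0.05). In the model of 10 libraries the risers' median log2 fold change was -0.54, against -0.29 over all tested genes. Of the 645 fallers 192 (29.8%) were higher and 131 (20.3%) lower, with a median of 0.04. The risers of at least 4-fold showed the fall most, with 52 of 112 (46.4%) lower, 14 (12.5%) higher and a median of -1.43. Of the 66 risers under 2-fold 15 (22.7%) were lower and 24 (36.4%) higher. The size of the early rise itself went with abundance, with a median of 2.94 in the lowest class of mean log2 CPM and 1.27 in the highest. The groups by fold were not set beside tested genes of like abundance.

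**Figure D4:**
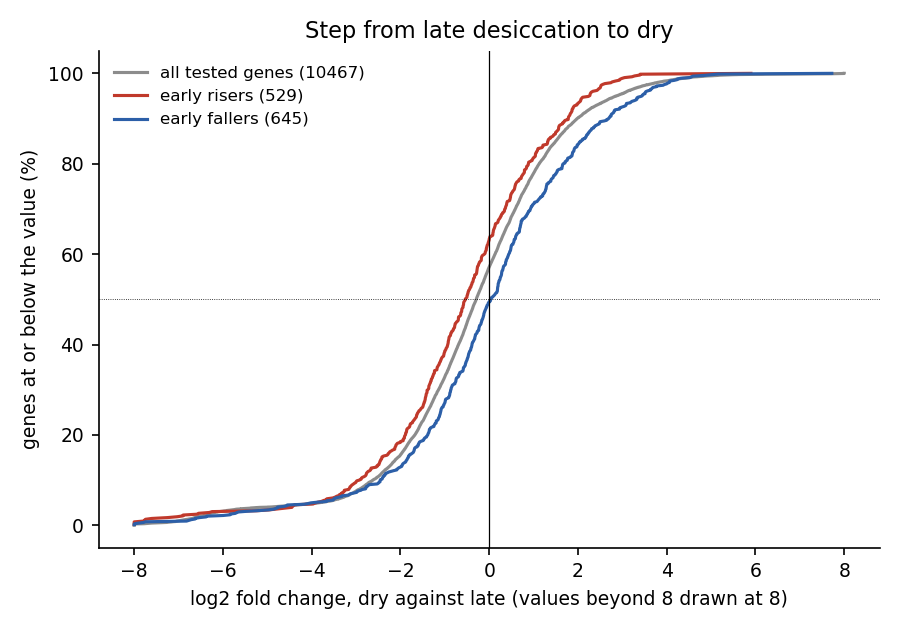
Share of genes (vertical axis, percent) at or below each log2 fold change of dry against late desiccation (horizontal axis), for all tested genes (grey), early risers (red) and early fallers (blue). The riser curve lies to the left of the curve of all tested genes over the middle of the range, with medians of -0.54 and -0.29, and the faller curve to the right, with a median of 0.04.

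Abundance went with the direction of this step, so the sets were also set beside tested genes of like abundance. From the lowest to the highest class of mean log2 CPM, 24.0%, 25.4%, 20.4% and 11.6% of all tested genes were lower in dry than in late, and 5.58%, 8.44%, 22.6% and 52.8% were higher. Among risers 55.8%, 60.4%, 48.9% and 25.0% were lower, a larger share than of all tested genes in each class, and 2.33%, 4.4%, 9.92% and 37.5% were higher, a smaller share in each. The median log2 fold change of risers was -2.88, -1.62, -0.92 and 0.21, below the -1.47, -0.63, -0.06 and 0.88 of all tested genes. Fallers lay near all tested genes under this split: 24.6%, 29.8%, 22.7% and 12.4% were lower and 4.35%, 7.80%, 19.9% and 55.2% higher. These classes rest partly on the late and dry libraries, so a fall or rise in this step itself moves a gene between classes. With classes set by the hydrated and early libraries alone, a split added after the data were seen, 34.6%, 45.7%, 47.7% and 33.9% of risers were lower, where 17.5%, 21.8%, 23.2% and 18.8% of all tested genes were. Of the fallers 24.0%, 15.9%, 23.9% and 37.5% were then higher, where 14.0%, 13.0%, 22.7% and 39.9% of all tested genes were. The risers' larger share of falls was present in each class under both splits. Fallers were higher more often than all tested genes in the highest class alone under the first split, and in all but the highest under the second. These are counts beside counts, with no test of the sets.

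**Figure D5:**
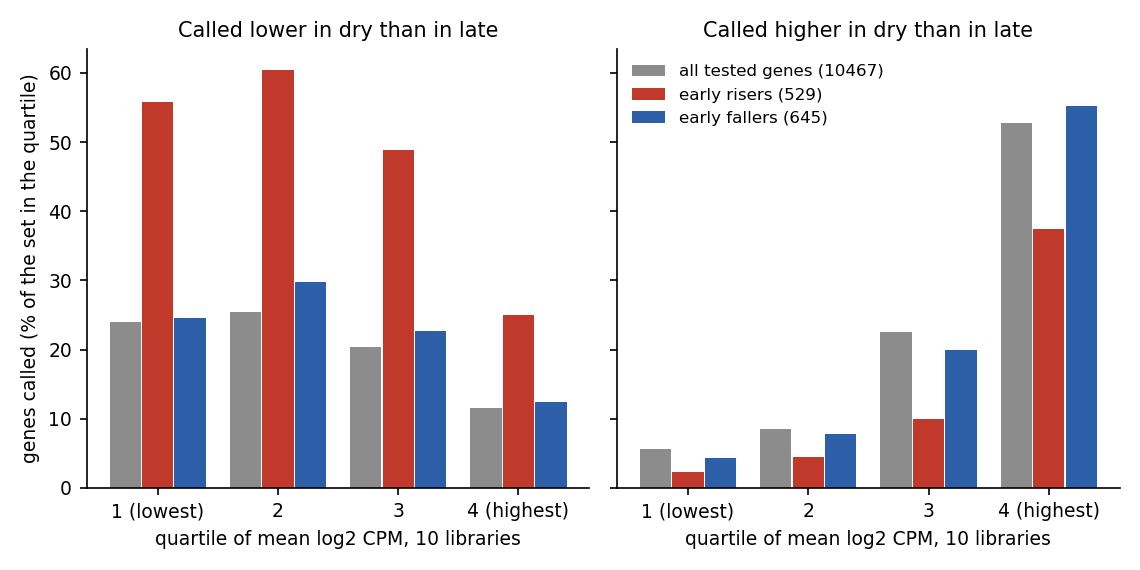
Share of genes called lower (left) and higher (right) in dry than in late desiccation (vertical axis, percent of the set in that class), by class of mean log2 CPM over the 10 libraries, for all tested genes (grey), early risers (red) and early fallers (blue). Risers were called lower in 25.0% to 60.4% of cases, above all tested genes (11.6% to 25.4%) in each class, while the faller bars lie close to the grey ones.

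The share of risers that were lower in dry than in late stood above that of all tested genes in each of 17 alternative settings. The excess was 8.9 to 39.4 percentage points, with the sets formed anew under each setting. The share of fallers that were higher also stood above that of all tested genes in each of the 17, by 6.4 to 18.6 percentage points. These shares were not split by abundance. Most of the 17 settings left out 1 library, and neither limma nor the 2-fold minimum was run for this step. Because the late libraries held reads for more genes than the others, they were left out in turn: 32.6% of risers were lower without late replicate 1 (14.2% of all tested genes) and 30.5% without late replicate 2 (10.6%). When libraries were scaled by their totals, 65.7% of the risers were lower and 6.57% higher, where 56.8% and 7.85% of all tested genes were. The share of risers that were higher was 14.3% without early replicate 1 (21.8% of all tested genes). Leaving out late replicate 2 gave 12.5% of fallers lower and leaving out dry replicate 1 gave 12.4%, where that of all tested genes was 10.6% and 10.9%, so both moved together. Of the 76 risers called with every hydrated and early library left out, 42 (55.3%) were lower in dry than in late and 13 (17.1%) higher. Of the 155 such fallers, 55 (35.5%) were higher and 23 (14.8%) lower.

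The early genes were also grouped by their call in this step, so unlike levels in dry drops follow largely from the grouping. In the 209 risers that fell, the median log2 fold change relative to hydrated drops was 1.43 at early and 1.10 at late desiccation, -0.73 in dry and -0.50 in rehydrated drops. These genes were up while water was being lost and stood below the hydrated level, in the median, once dry. The 2128 tested genes that fell in this step also stood below it once dry, with medians of 0.17, 0.32, -1.96 and -0.97 in the same order. The 2341 tested genes that rose had medians of -0.08, -0.05, 1.8 and 1.5. The 117 risers that rose again had medians of 1.34, 1.93, 3.60 and 3.12, and the 203 without a call 1.38, 1.08, 0.83 and 0.81. Among the fallers, the 192 that rose had medians of -1.58, -1.73, 0.41 and 0.19, so that their median stood near the hydrated level from the dry stage on. Single genes spread widely around it, with quartiles of -0.37 to 1.27 in dry and -0.64 to 1.29 in rehydrated drops. The 131 that fell further had medians of -1.53, -1.72, -3.95 and -2.87, and the 322 without a call -1.70, -1.95, -2.13 and -1.97. The groups were formed on dry against late, and all 4 values share the hydrated libraries, so they are given as descriptions.

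Between early and late desiccation the medians of both sets moved little. The median log2 fold change of late against early was -0.27 in risers (quartiles -0.77 to 0.46) and -0.18 in fallers (-0.73 to 0.45), against 0.01 over all tested genes (-0.44 to 0.53). This comparison shares the early libraries with the one that chose the sets.

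Few of these genes were called between dry and rehydrated drops by edgeR. Of the risers 19 (3.59%) were higher and 29 (5.48%) lower in rehydrated than in dry drops, and of the fallers 23 (3.57%) and 7 (1.09%). Of all tested genes 2.73% were higher and 2.39% lower. The medians were -0.02 in risers, 0.11 in fallers and 0.07 over all tested genes. These counts were unstable. They changed with the library left out, as did the share of all tested genes called, and such fits leave 1 library in a stage. The share of risers lower was 8.91% with a block for replicate number (3.67% of all tested genes) and 15.1% with DESeq2 (5.20%), and that of fallers lower 2.69% and 5.85%. Scaled by library totals, 9.47% of risers and 9.48% of fallers were higher (7.33% of all tested genes). Set against late desiccation, rehydrated drops were close to dry ones. Of the risers 206 (38.9%) were lower than at late desiccation and 100 (18.9%) higher, where 16.0% and 20.5% of all tested genes were. Of the fallers 92 (14.3%) were lower and 217 (33.6%) higher. This comparison shares the late libraries with dry against late.

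As a share of all counts, the risers held 1.38% and 1.55% in the hydrated libraries, 4.70% and 5.25% in the early, 6.03% and 5.87% in the late, 5.04% and 5.89% in the dry and 5.24% and 9.13% in the rehydrated ones. The fallers held 5.89% and 7.4%, 2.31% and 3.11%, 2.33% and 2.45%, 2.55% and 3.07%, and 3.01% and 4.76% in the same order. The shares in the early and hydrated libraries did not overlap in either set, which follows from choosing the sets on these same libraries. Rehydrated replicate 2 had the highest share of riser counts of all libraries, and in it the most abundant gene of the series took 13.5% of the counts, against 22.1% to 29.6% in the hydrated and early libraries. Whether that moved with the other shares was not tested.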

How the data were processed

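RNA was sequenced from algal drops after removal of ribosomal RNA, per the labels' protocols. RSEM 1.2.28, Bowtie2 2.2, Trimmomatic 0.35, CASAVA 1.4 and DESeq2 are named, with no role, in the submitters' processing notes. How transcripts were assembled is not given in the sources used here. Expected counts per gene of the assembly were deposited without normalisation. A second deposited table holds a signal that the authors scaled by TMM, per its name; its unscaled unit is not stated. The column names of both tables begin with Srot where the sample titles begin with Frot, so each column was assigned to the title that has its replicate and stage codes.

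Expected counts were rounded to whole numbers and filtered by filterByExpr of edgeR (at least 10 counts in enough libraries, 15 in total). CPM were scaled by TMM. One quasi-likelihood model (edgeR 4.0.16, R 4.3.3) covered all 10 libraries and 5 stages. Tests were two-sided, with Benjamini-Hochberg adjustment over all tested genes. Calls needed an adjusted p below 0.05. Standard errors (SE) are absolute log2 fold changes divided by the square root of F. Relative gene length is the ratio of the 2 tables per gene, divided by its median.

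The genes named were, among called genes without overlap between the libraries and with a mean of 20 CPM or more in the stage where they were higher, the rise and the fall of largest fitted fold and those of largest difference in CPM. The comparison, gene sets and tests were chosen with earlier results of these data known. Alternatives were library totals, median-of-ratios size factors, other filters, limma 3.58.1 on the deposited signal (log2, pseudocounts 1 and 0.1), DESeq2 1.42.0, a block for replicate number, a minimum change of 2-fold, fits of fewer stages and each library left out. After the data were seen, totals without the most abundant gene, the early counts without rehydrated replicate 2, separate fits of the 4 hydrated and early and the 4 late and dry libraries, abundance classes from the hydrated and early libraries, and the dry against late counts without each hydrated or early library were added.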

Additional observations from a re-analysis of the deposited data

How the results depend on the processing

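No setting turned a called early gene to a call in the other direction. This says little, because the libraries of the 2 stages did not overlap in any called gene. The smallest called change was 0.78 on the log2 scale, while library totals moved the median of all tested genes to 0.42. Against 529 genes higher and 645 lower at early desiccation, library totals alone gave 792 and 232, and totals without the most abundant gene 989 and 335. The fit of the hydrated and early libraries only gave 800 and 953, and limma gave 341 and 385 with pseudocount 1, 245 and 247 with 0.1, 237 and 276 without a filter and 260 and 310 with a mean of at least 1. A 2-fold minimum left 42 and 109. With 1 library left out the counts ran from 119 to 725 higher and from 197 to 884 lower, with 720 and 884 without rehydrated replicate 2. DESeq2 (450 and 496), median-of-ratios size factors (554 and 616) and a filter at 5 CPM (542 and 667) stayed within 1.5 times. For dry against late, totals alone gave 6.57% of risers higher and 65.7% lower, and 18.1% of fallers higher and 47.8% lower, beside 7.85% and 56.8% of all tested genes. Without 1 library these shares ran from 14.3% to 28.2%, 29.4% to 57.9%, 26.5% to 35.4% and 12.4% to 21.4%. The causes were not tested. With the replicate number as a block 561 genes were higher and 706 lower. The numbers were not shown to pair libraries: differences between replicates of a stage correlated across genes at 0.00 to 0.14 between stages, and at 0.05 for hydrated and early. With 2 libraries a stage, changes in genes with few reads had wide errors.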
